A study of Homo sapiens with 6 samples.

Results

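Androgen target genes were followed in C4-2B MDVR and CWR22Rv1 prostate cancer cells exposed to inhibitors of the chaperone HSP70. The set held 38 genes out of the 60658 Ensembl identifiers in each deposited table. The genes were chosen by name, with earlier results of these data known, from genes that prostate cells are known to switch with androgen. All 38 were matched, ACP3 through its older symbol ACPP in the annotation. Both lines are castration-resistant human prostate carcinoma lines. C4-2B MDVR is a derivative of C4-2B selected for resistance to the antiandrogen enzalutamide, and it was kept in medium with 20 µM enzalutamide, whereas CWR22Rv1 was kept without the drug, so line and enzalutamide cannot be told apart. For C4-2B MDVR the source label reads LNCaP-C4-2B and the cell type label parental, and the line named in the titles was used. Each line received DMSO vehicle, 10 µM apoptozole (APO) or 10 µM VER155008 (VER), and RNA was taken at 48 h. APO and VER both block the ATPase activity of HSP70. The 6 conditions had 1 RNA-seq library each, so no difference has a replicate check, no p-value could be computed, and the word "lower" or "higher" refers to those libraries.

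Androgens are steroid hormones that drive the luminal cells of the prostate, where they turn on genes for secretion, lipid metabolism and growth. Steroid hormone receptors depend on HSP70, HSP90 and their partners for the folded state that binds hormone, and on DNA they use response elements made of a pair of short half-sites, many of them in distant enhancers. The glucocorticoid receptor binds elements of this kind, and SGK1, TSC22D3 and ZBTB16 of the present set are among its best known targets. FOLH1 and OPRK1 are known as genes that androgen represses rather than induces, and they were kept in the set as listed.

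The start regions of a few members are shown because these members differed in how they followed the fall of the set. RefSeq windows of 250 bases upstream of an annotated start (GRCh38.p14) were found for 27 of the 38 genes. TMPRSS2, ADAMTS1, CHRNA2, OPRK1, FOLH1, PLPP1, SORD, NDRG1, ELL2, ZBTB10 and ZBTB16 had no such window. STEAP4 and SLC45A3 were lower in every inhibitor library, and STEAP1 was one of the members that VER left near the vehicle level. Their upstream sequences, limited to the stretch outside annotated exons, are given 5′ to 3′ on the gene's own strand.
STEAP4, chr7:88306895-88307144, minus strand: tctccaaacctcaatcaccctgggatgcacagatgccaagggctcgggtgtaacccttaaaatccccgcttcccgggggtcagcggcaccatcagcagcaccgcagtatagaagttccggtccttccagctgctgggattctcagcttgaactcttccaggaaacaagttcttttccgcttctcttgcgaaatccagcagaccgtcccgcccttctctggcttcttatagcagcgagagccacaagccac
STEAP1, chr7:90154219-90154374, plus strand: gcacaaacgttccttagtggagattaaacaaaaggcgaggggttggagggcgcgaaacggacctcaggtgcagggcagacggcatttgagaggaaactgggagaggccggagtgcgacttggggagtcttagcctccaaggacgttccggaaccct
SLC45A3, chr1:205680510-205680759, minus strand: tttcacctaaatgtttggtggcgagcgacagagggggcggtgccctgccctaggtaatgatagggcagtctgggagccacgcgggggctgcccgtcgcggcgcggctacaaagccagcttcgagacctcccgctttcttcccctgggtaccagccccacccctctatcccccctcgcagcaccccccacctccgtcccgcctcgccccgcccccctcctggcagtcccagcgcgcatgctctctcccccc
The GC content of these stretches was 55.6% for STEAP4, 57.7% for STEAP1 and 69.2% for SLC45A3. None of them held a steroid response half-site, searched on both strands as AGAACA (reverse complement TGTTCT) or as the variant GGTACA (reverse complement TGTACC).

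Over all member windows, AGAACA was present on either strand in 3 of 51 windows (5.88%), against 12.4% of 35116 windows of the same length over all genes. GGTACA was present in 2 of 51 (3.92%), against 4.73%. The half-sites found in members are printed with 10 bases on either side and the half-site in capitals.
LIFR, chr5:38557460-38557485, minus strand, 8 bases upstream: tgtgccgaagAGAACAccatcaaacg
PMEPA1, chr20:57710791-57710816, minus strand, 229 bases upstream: ctgaagaatgTGTTCTtgtagcactc
TRPM8, chr2:233979973-233979998, plus strand, 166 bases upstream: catgaagagcAGAACAgccagtgtgc
TRPM8, chr2:233976372-233976397, plus strand, 46 bases upstream: actcaggagaGGTACAttttccttgg
TSC22D3, chrX:107717214-107717239, minus strand, 167 bases upstream: gatgccagttGGTACAagaaagtgct
TSC22D3, chrX:107717133-107717158, minus strand, 86 bases upstream: cacaaagcccGGTACAggactcattt
All the printed matches lie inside the annotated span of their gene, so the starts they precede are internal ones. Both GGTACA matches of TSC22D3 lie upstream of the same start. TSC22D3 was the single member that was higher in all 4 inhibitor libraries, whereas TRPM8 was lower with both inhibitors in C4-2B MDVR. A link between matches and direction of change was not tested. The matches are letters in a window and were not tested for binding.

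Levels were deposited as FPKM, fragments scaled to transcript length and to the mapped fragments of the library. A fold change here is a difference of log2(FPKM + 0.1) between libraries, which understates changes of genes near 0.1 FPKM, and a gene counted as lower or higher past 1.2-fold, the fold the study used. Genes above 0.1 FPKM in at least 1 library of a line were compared. Read totals are not in the tables. Ratios of low FPKM put the libraries between 1 and 1.63 times the depth of the C4-2B MDVR DMSO library, so values well under 1 FPKM are the least precise. Genes of the mitochondrial chromosome held 10.4% of the FPKM in CWR22Rv1 with APO, against 25.7% in the DMSO and VER libraries of that line and 14.8% to 16.4% in C4-2B MDVR, and the part of this in the results was not tested beyond the rescalings. The luminal markers KRT8, KRT18, CDH1 and HOXB13 were at 24.4 FPKM or more in every library. The basal markers KRT5 and TP63 and the endothelial marker PECAM1 were listed at 0 throughout, the basal marker KRT14 reached 0.101 FPKM, the leukocyte marker PTPRC 0.0323 FPKM and the fibroblast gene COL1A2 0.204 FPKM, while COL1A1, another fibroblast gene, lay between 3.32 and 10.8 FPKM.

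With APO in C4-2B MDVR cells, 27 of the 37 members compared (73.0%) were lower than with DMSO, against 35.4% of all genes, and 3 were higher, against 37.7%. VER in the same line gave 28 of 37 lower (75.7%), against 34.9% of all genes, and 7 higher, against 35.6%. The 28 include ORM1, listed at 0 with VER. In CWR22Rv1 cells APO gave 23 of 36 lower (63.9%), against 39.2%, and 5 higher, against 35.6%. The 36 and the 5 include TRPM8, which was listed at 0 with DMSO and passed the filter there through the APO library alone. VER in CWR22Rv1 gave 11 of 36 lower (30.6%) and 9 higher (25.0%), against 32.3% and 32.1% of all genes, so the members moved no more often downward than the background there. The median log2 fold change of the members was in C4-2B MDVR -0.88 (APO) and -0.83 (VER), and in CWR22Rv1 -0.52 and -0.01, where the median of all genes compared was 0 in C4-2B MDVR, -0.01 with APO in CWR22Rv1 and -1.0e-04 with VER. MAF did not pass the filter in C4-2B MDVR, and ORM1 and OPRK1 did not in CWR22Rv1. TMPRSS2 and ELL2 are among the genes that the study displays from these samples and are not independent evidence of direction. Without them, 25 of 35 (APO) and 26 of 35 (VER) members were lower in C4-2B MDVR, and 21 of 34 and 10 of 34 in CWR22Rv1. The remaining members were also chosen with earlier results of these data known, so their counts are not an independent check either. In bulk RNA, fewer cells of a kind and less RNA per cell cannot be told apart.

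**Figure D1:**
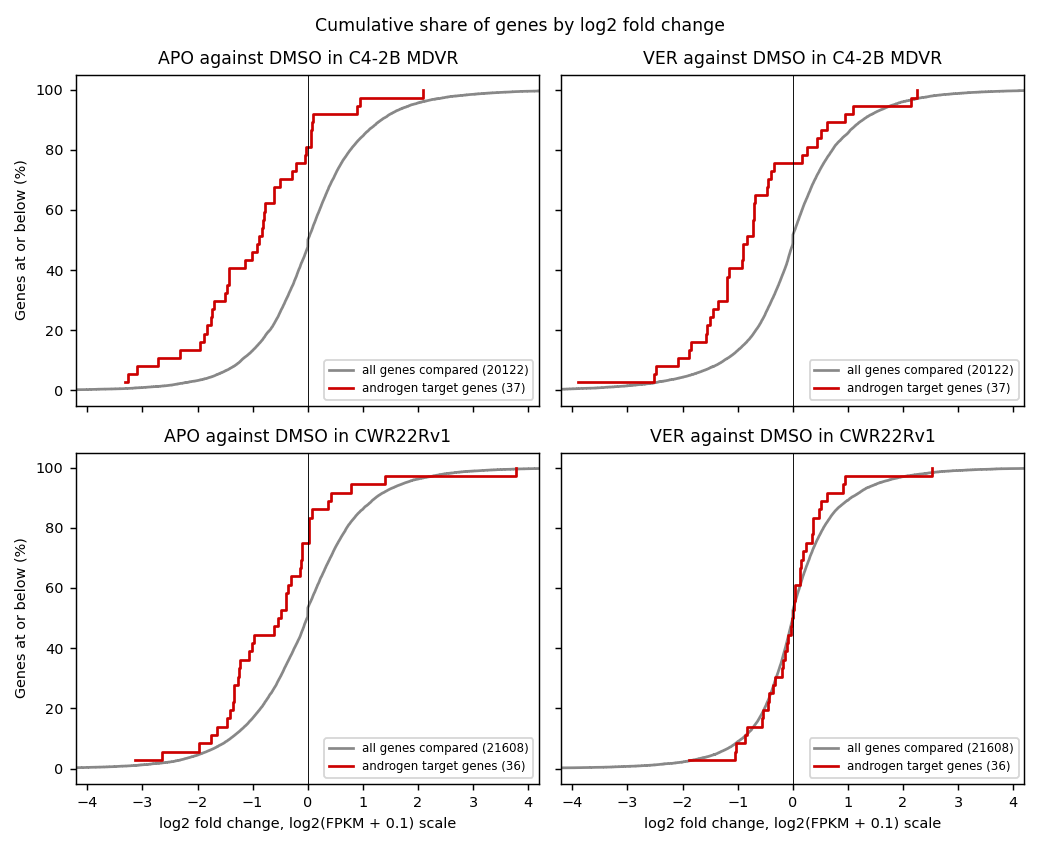
Cumulative share of genes (%, vertical axis) by log2 fold change against DMSO (horizontal axis) in the 4 inhibitor contrasts, for the androgen target genes (red, 37 in C4-2B MDVR and 36 in CWR22Rv1) and all genes compared (grey, 20122 and 21608). Members listed at 0 in a library are included in the curves. Over most of its range the red curve lies to the left of the grey one in both C4-2B MDVR panels and with APO in CWR22Rv1, and the curves run together with VER in CWR22Rv1, where the members' median is -0.01.

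At the larger cutoff of 2-fold, 17 members were lower with APO in C4-2B MDVR (45.9%, against 13.3% of all genes) and 15 with VER (40.5%, against 13.3%). In CWR22Rv1 15 were lower with APO (41.7%, against 16.8%) and 3 with VER (8.33%, against 8.92%). The 35 members compared in both lines fell into a few patterns. ADAMTS1, STEAP4, SLC45A3, VIPR1, SORD, RAB3B, ELL2 and ZBTB16 were lower in all 4 contrasts, 8 of 35 (22.9%) against 11.3% of all genes compared in both lines. Another 10 (28.6%, against 4.85%) were lower with APO in both lines and with VER in C4-2B MDVR but not with VER in CWR22Rv1, namely TMPRSS2, CHRNA2, LIFR, ACSL3, PLPP1, HPGD, CAMKK2, PMEPA1, PART1 and C1orf116. ABCC4, NDRG1, HERC3 and EAF2 were lower with either inhibitor in C4-2B MDVR and with neither in CWR22Rv1, which is 4 of the 34 members above 0 in all 6 libraries (11.8%) against 5.35% of genes chosen in that way. TRPM8, listed at 0 with DMSO in CWR22Rv1, could not be lower there, and counting it as well gives 5 of 35 (14.3%) against 6.1%. FOLH1, ALDH1A3, GNMT and TSC22D3 were lower in no contrast, 4 of 35 (11.4%) against 36.8%. The contrasts of a line share its DMSO library, so an error in that library would move both of them together.

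**Figure D2:**
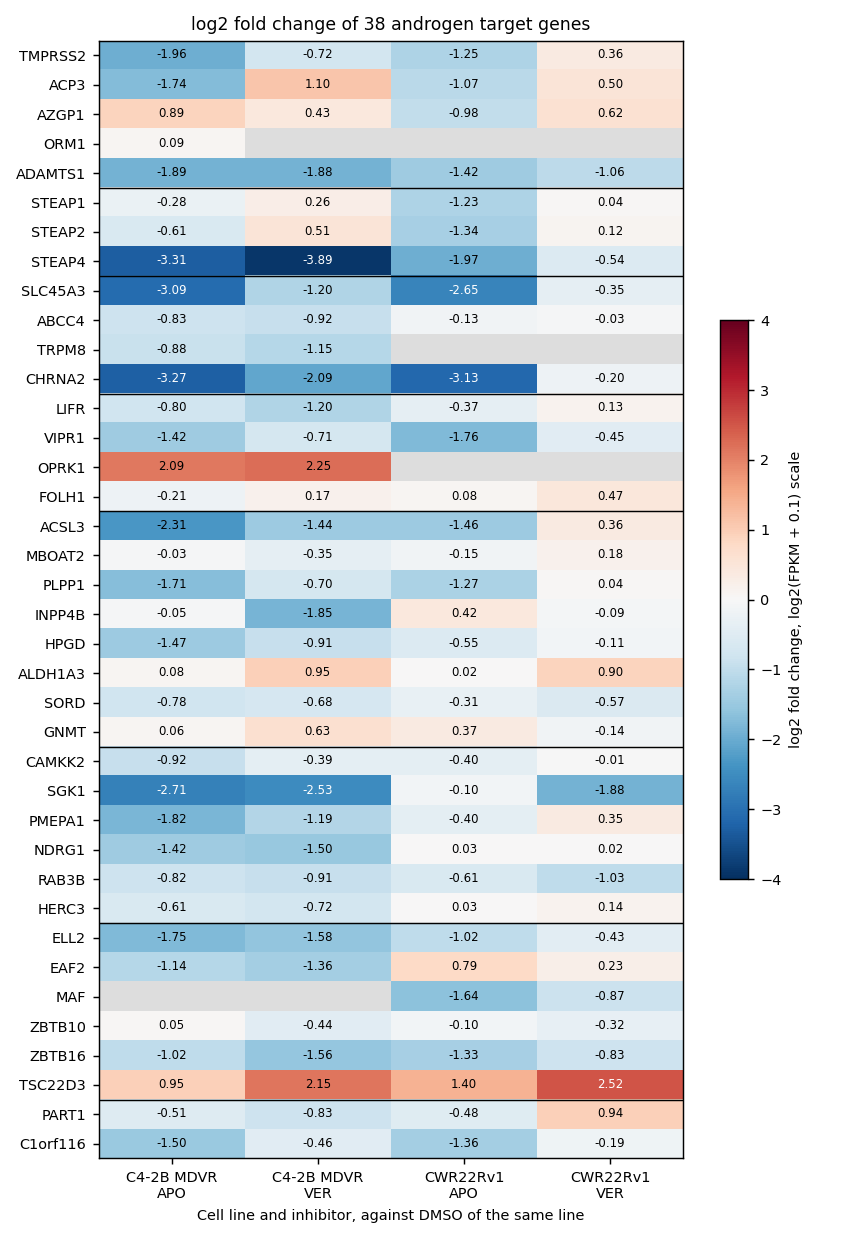
log2 fold change of each of the 38 genes (rows, grouped by role) in the 4 inhibitor contrasts (columns), on the log2(FPKM + 0.1) scale, blue lower and red higher than DMSO. Grey cells were under the filter or rest on a library where the gene is listed at 0. Blue fills most of the first 3 columns, TSC22D3 is red in all 4, and the column of VER in CWR22Rv1 is pale for most genes.

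Among the proteases and secreted proteins, TMPRSS2 (ENSG00000184012, chromosome 21 of GRCh38, 41464551 to 41531116), a membrane serine protease whose androgen-driven promoter is often fused to ETS genes in prostate cancer, was at 62.2 FPKM (DMSO), 15.9 FPKM (APO) and 37.7 FPKM (VER) in C4-2B MDVR. In CWR22Rv1 it was at 15.3, 6.40 and 19.8 FPKM. APO thus gave the lowest level in both lines, and VER lay between DMSO and APO in one line and above DMSO in the other, with log2 fold changes of -1.96 and -0.72 in C4-2B MDVR and -1.25 and 0.36 in CWR22Rv1. ACP3 (chromosome 3, 132317367 to 132368298), the secreted prostatic acid phosphatase, was at 8.76 FPKM (DMSO), 2.55 FPKM (APO) and 18.9 FPKM (VER) in C4-2B MDVR and at 5.39, 2.52 and 7.69 FPKM in CWR22Rv1. It had the same order in both lines, VER above DMSO above APO, with log2 fold changes of -1.74 and 1.10 and of -1.07 and 0.50.

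ADAMTS1 (chromosome 21, 26835747 to 26845409), a secreted metalloprotease, was the member of this group that was lower throughout. Its level was 11.0 FPKM (DMSO), 2.91 FPKM (APO) and 2.92 FPKM (VER) in C4-2B MDVR, and 7.67, 2.80 and 3.64 FPKM in CWR22Rv1. The inhibitor libraries of both lines lay in a narrow range, 26.4% and 26.5% of the DMSO level in C4-2B MDVR and 36.6% and 47.4% in CWR22Rv1. AZGP1 (chromosome 7, 99966720 to 99976157), a secreted zinc-binding glycoprotein, was higher with both inhibitors in C4-2B MDVR, where it was at 74.7 FPKM (DMSO), 139 FPKM (APO) and 101 FPKM (VER). In CWR22Rv1 it was at 63.8, 32.2 and 97.9 FPKM, so APO gave the highest level in one line and the lowest in the other. ORM1, an acute phase plasma protein, was at 0.461, 0.498 and 0 FPKM in C4-2B MDVR and listed at 0 in the CWR22Rv1 libraries. Its close copy ORM2 was at 0.109 to 0.753 FPKM, and reads may be split between them.

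The 3 STEAP genes encode metalloreductases of the prostate cell surface or their relatives, all on chromosome 7, with STEAP1 (90154375 to 90164829) and STEAP2 (90167590 to 90238137) next to each other and STEAP4 (88270892 to 88306891) apart from them. STEAP1, a surface antigen used as a therapy target, was at 162 FPKM (DMSO), 134 FPKM (APO) and 195 FPKM (VER) in C4-2B MDVR and at 214, 91.1 and 219.96 FPKM in CWR22Rv1. STEAP2 was at 88.0, 57.5 and 125 FPKM in C4-2B MDVR and 89.6, 35.4 and 97.7 FPKM in CWR22Rv1. The neighbours moved alike, lower with APO in both lines and at or above DMSO with VER. Their log2 fold changes with VER were 0.26 and 0.51 in C4-2B MDVR and 0.04 and 0.12 in CWR22Rv1, of which that of STEAP2 in C4-2B MDVR passed 1.2-fold.

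STEAP4 behaved differently from its relatives. It was at 6.99 FPKM (DMSO), 0.617 FPKM (APO) and 0.379 FPKM (VER) in C4-2B MDVR, and at 0.655, 0.0930 and 0.418 FPKM in CWR22Rv1. In C4-2B MDVR VER left 5.42% of the DMSO level (a log2 fold change of -3.89), the smallest share left in any member that was above 0 in the libraries compared, and 63.9% in CWR22Rv1 (-0.54), where the gene was already under 1 FPKM. The CWR22Rv1 value with VER became -0.22, under 1.2-fold, when 1 was added to FPKM in place of 0.1.

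In C4-2B MDVR all 4 transporters and channels were lower under either compound, against 35.4% (APO) and 34.9% (VER) of all genes. In CWR22Rv1 2 of the 4 were lower with APO, against 39.2%, and 1 with VER, against 32.3%. The 4 include TRPM8, which was listed at 0 with DMSO in that line and could not be lower. SLC45A3 (ENSG00000158715, chromosome 1, 205657851 to 205680459), also called prostein and confined largely to prostate epithelium, was at 182 FPKM (DMSO), 21.2 FPKM (APO) and 78.9 FPKM (VER), and in CWR22Rv1 at 88.2, 14.0 and 68.9 FPKM. APO left 11.7% and 15.8% of the DMSO level, and VER 43.5% and 78.2%, so the order of the inhibitors was the same in both lines. CHRNA2 (chromosome 8, 27459761 to 27479883), a nicotinic acetylcholine receptor subunit, was at 3.10, 0.232 and 0.653 FPKM in C4-2B MDVR and at 36.5, 4.07 and 31.7 FPKM in CWR22Rv1. APO left 7.48% and 11.1% of the DMSO level, and VER 21.1% and 86.9%.

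ABCC4, a drug and prostaglandin exporter, was at 38.6, 21.7 and 20.3 FPKM in C4-2B MDVR and at 1.81, 1.65 and 1.77 FPKM in CWR22Rv1, where no inhibitor moved it past 1.2-fold. TRPM8 (chromosome 2, 233917398 to 234019522), the cold-sensing cation channel, was at 5.90, 3.16 and 2.60 FPKM in C4-2B MDVR. In CWR22Rv1 it was at 1.26 FPKM with APO and listed at 0 in the other libraries, so it passed the filter in that line through the APO library alone and has no fold change there.

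Of the receptors and surface antigens, VIPR1 (chromosome 3, 42489299 to 42537573), the receptor of vasoactive intestinal peptide, was lower in all contrasts, at 13.2 FPKM (DMSO), 4.86 FPKM (APO) and 8.03 FPKM (VER) in C4-2B MDVR and 7.77, 2.22 and 5.66 FPKM in CWR22Rv1. LIFR, a cytokine receptor of the interleukin-6 family, was at 17.5, 10.0 and 7.57 FPKM in C4-2B MDVR and at 2.49, 1.91 and 2.74 FPKM in CWR22Rv1, where its log2 fold change with APO (-0.37) became -0.26, just under 1.2-fold, as TPM. The 2 androgen-repressed members did not share the fall. FOLH1 (ENSG00000086205, chromosome 11, 49146635 to 49208670), which encodes prostate-specific membrane antigen, was at 179, 155 and 202 FPKM in C4-2B MDVR and at 134, 141 and 185 FPKM in CWR22Rv1. Only its 0.47 with VER in CWR22Rv1 passed 1.2-fold as deposited, and -0.21 with APO in C4-2B MDVR became -0.36 as TPM and -0.37 scaled to genes outside the mitochondrial chromosome. OPRK1, the kappa opioid receptor (chromosome 8, 53225716 to 53251697), was at 0.151 FPKM (DMSO), 0.974 FPKM (APO) and 1.09 FPKM (VER) in C4-2B MDVR, with log2 fold changes of 2.09 and 2.25. It was at 0, 0.0131 and 0.0301 FPKM in CWR22Rv1, too low to compare.

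The enzymes were divided. ACSL3 (chromosome 2, 222860934 to 222944639), which activates long-chain fatty acids, was at 331 FPKM (DMSO), 66.6 FPKM (APO) and 122 FPKM (VER) in C4-2B MDVR, and at 41.1, 14.8 and 52.7 FPKM in CWR22Rv1. PLPP1, a lipid phosphatase and the most abundant member in C4-2B MDVR, was at 702, 215 and 431 FPKM in C4-2B MDVR and 119, 49.1 and 122 FPKM in CWR22Rv1. Both genes kept the order found for TMPRSS2: lowest with APO in both lines, and at or above the vehicle with VER in CWR22Rv1, with log2 fold changes of 0.36 for ACSL3 and 0.04 for PLPP1.

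SORD (chromosome 15, 45023104 to 45077185), which turns sorbitol into fructose, was at 237, 137 and 147 FPKM in C4-2B MDVR and 29.6, 23.9 and 19.96 FPKM in CWR22Rv1. It was lower in all contrasts as deposited, and its -0.31 with APO in CWR22Rv1 became -0.19 as TPM, under 1.2-fold. Its copy SORD2P was at 2.46 to 13.1 FPKM, and how reads were shared is not given in the sources used here. HPGD, which breaks down prostaglandins, was at 0.689, 0.185 and 0.321 FPKM in C4-2B MDVR and at 70.1, 47.8 and 64.8 FPKM in CWR22Rv1, so the line with the abundant transcript showed the smaller changes (-0.55 and -0.11, against -1.47 and -0.91).

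ALDH1A3 (chromosome 15, 100877714 to 100916626), which makes retinoic acid, was higher with VER in both lines and near the vehicle with APO. It was at 6.38, 6.75 and 12.4 FPKM in C4-2B MDVR and at 0.144, 0.146 and 0.356 FPKM in CWR22Rv1, so the CWR22Rv1 change of 0.90 rests on values near the pseudocount and was 0.25 with a pseudocount of 1. ALDH1A3 exons overlap those of AC015712.2 on the other strand, which reached 1.93 FPKM, so its reads may not all be its own. GNMT, a glycine methyltransferase, was at 6.81, 7.12 and 10.6 FPKM in C4-2B MDVR and at 1.11, 1.46 and 1.0 FPKM in CWR22Rv1. Its exons overlap those of PEX6 on the other strand, which reached 13.1 FPKM, and whether counting used strand is not given in the sources used here. MBOAT2, a phospholipid acyltransferase, was lower past 1.2-fold only with VER in C4-2B MDVR (-0.35) as deposited. INPP4B, a phosphoinositide phosphatase, was at 0.657, 0.630 and 0.110 FPKM in C4-2B MDVR and at 1.82, 2.47 and 1.70 FPKM in CWR22Rv1.

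**Figure D3:**
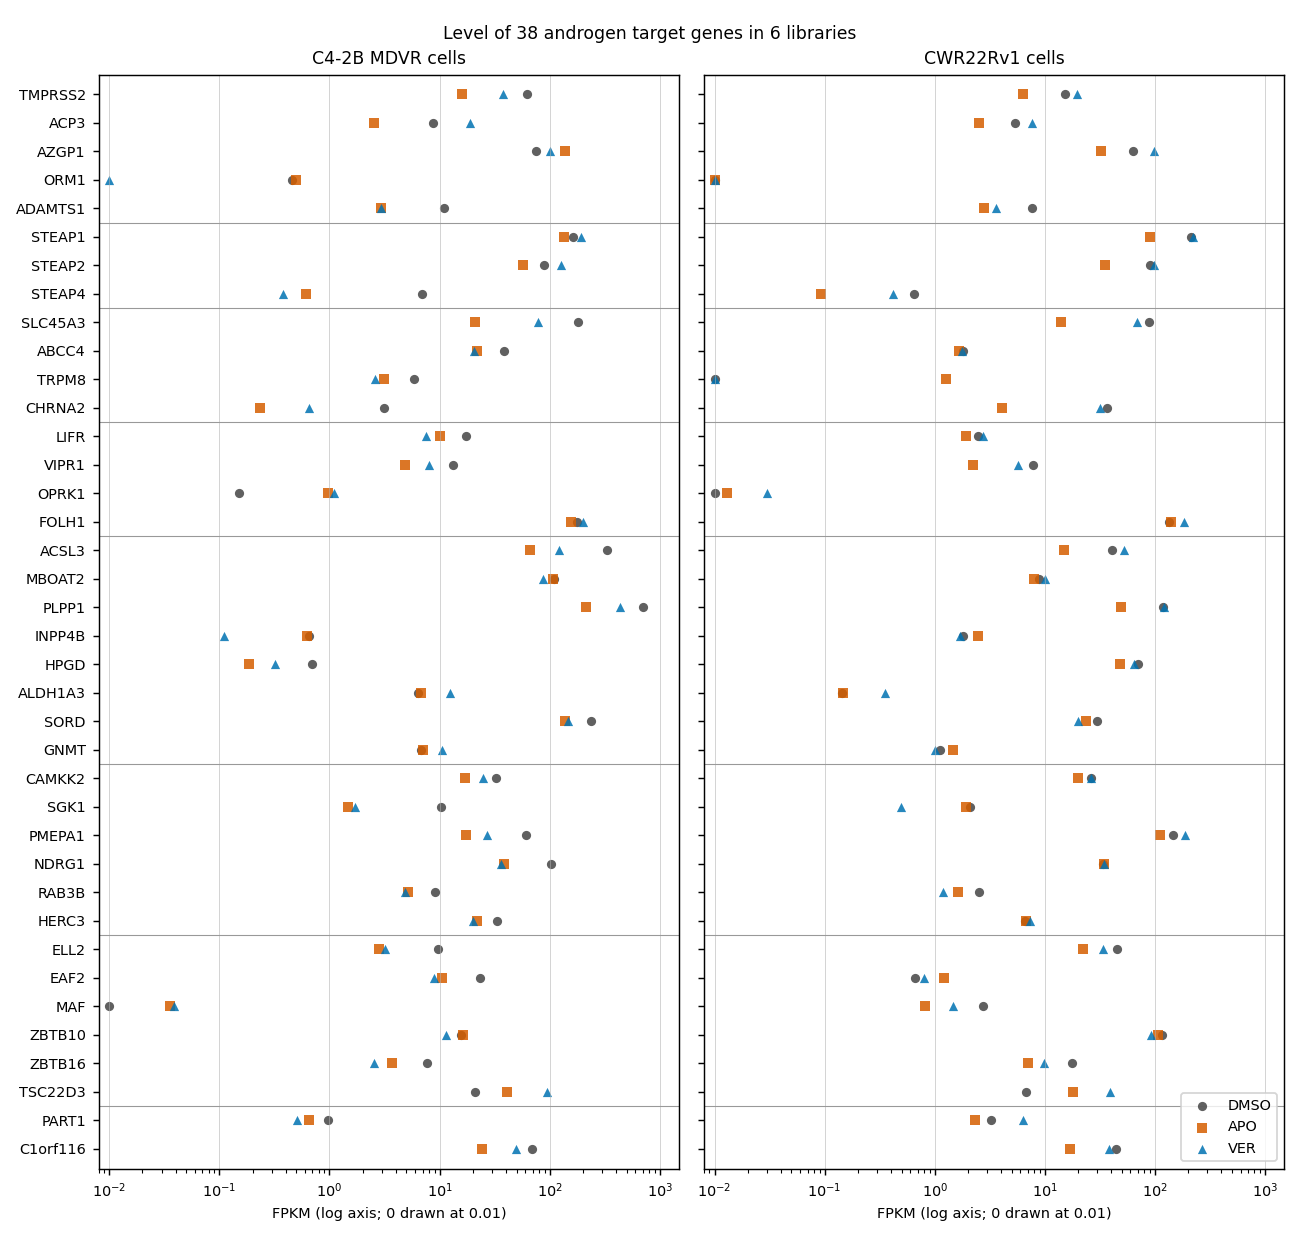
FPKM of the 38 genes (rows, grouped by role) on a log axis in C4-2B MDVR (left) and CWR22Rv1 (right) cells, 1 library per symbol, with DMSO as grey circles, APO as orange squares and VER as blue triangles and values of 0 drawn at 0.01. In the left panel most grey circles lie to the right of both inhibitors, and in the right panel the triangles often lie beside or beyond the circles, as for TMPRSS2 at 15.3 FPKM with DMSO and 19.8 FPKM with VER.

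In C4-2B MDVR each of the 6 kinase, signalling and trafficking genes was lower with APO as well as VER, against 35.4% and 34.9% of all genes. In CWR22Rv1 3 of 6 were lower with APO, against 39.2%, and 2 of 6 with VER (33.3%, near the background of 32.3%). CAMKK2, a calcium-dependent kinase that activates AMPK, was at 32.3, 17.1 and 24.6 FPKM in C4-2B MDVR and at 26.5, 20.1 and 26.2 FPKM in CWR22Rv1. SGK1 (chromosome 6, 134169246 to 134318112), a kinase induced by steroid hormones, was at 10.3, 1.48 and 1.70 FPKM in C4-2B MDVR and at 2.08, 1.92 and 0.489 FPKM in CWR22Rv1. In CWR22Rv1 the VER library was thus the low one and APO lay within 1.2-fold of DMSO (-0.10), the reverse of the order found for most members.

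PMEPA1 (chromosome 20, 57648392 to 57711536), a membrane protein that dampens TGF-beta signalling, was at 61.4, 17.3 and 26.9 FPKM in C4-2B MDVR and at 147, 111 and 187 FPKM in CWR22Rv1. NDRG1 (chromosome 8, 133237171 to 133302022), which also responds to hypoxia and stress, was at 103, 38.3 and 36.3 FPKM in C4-2B MDVR and at 33.9, 34.6 and 34.5 FPKM in CWR22Rv1. The inhibitor libraries of C4-2B MDVR therefore held NDRG1 at about the level that CWR22Rv1 had in all its libraries. HERC3, a ubiquitin ligase, showed the same split at 33.3, 21.8 and 20.2 FPKM and at 6.65, 6.79 and 7.34 FPKM. RAB3B (chromosome 1, 51907956 to 51990764), a small GTPase of secretory vesicles, was lower throughout, at 9.17, 5.15 and 4.83 FPKM in C4-2B MDVR and 2.51, 1.62 and 1.18 FPKM in CWR22Rv1.

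ELL2 (ENSG00000118985, chromosome 5, 95885098 to 95962071) belongs to the super elongation complex of RNA polymerase II, and EAF2 is a partner of the ELL proteins. ELL2 was at 9.73, 2.82 and 3.20 FPKM in C4-2B MDVR and at 45.5, 22.4 and 33.8 FPKM in CWR22Rv1, lower in each contrast. EAF2 (chromosome 3, 121835183 to 121886526) was at 23.2, 10.5 and 8.98 FPKM in C4-2B MDVR, and in CWR22Rv1 at 0.658, 1.21 and 0.792 FPKM. The partners therefore moved alike in C4-2B MDVR and apart with APO in CWR22Rv1, where the log2 fold changes were -1.02 for ELL2 and 0.79 for EAF2.

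ZBTB16 (chromosome 11, 114059593 to 114250676), the repressor PLZF, was lower in all contrasts, at 7.61, 3.70 and 2.52 FPKM in C4-2B MDVR and 17.7, 6.98 and 9.93 FPKM in CWR22Rv1. Its relative ZBTB10 was lower past 1.2-fold with VER alone, at -0.44 and -0.32. MAF, a basic leucine zipper factor, was at 0.0383 FPKM or less in C4-2B MDVR and at 2.75, 0.816 and 1.46 FPKM in CWR22Rv1.

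TSC22D3 (ENSG00000157514, chromosome X, 107713221 to 107777342), also called GILZ, an anti-inflammatory protein known for its induction by glucocorticoids, moved against the set. It was at 21.0 FPKM (DMSO), 40.7 FPKM (APO) and 93.7 FPKM (VER) in C4-2B MDVR and at 6.71, 17.9 and 39.1 FPKM in CWR22Rv1. Both lines had the same order, DMSO below APO below VER, and the log2 fold changes were 0.95 and 2.15 and then 1.40 and 2.52. It was the only member higher in all 4 contrasts, 1 of 35 (2.86%) against 9.59% of all genes. The other glucocorticoid-responsive members, SGK1 and ZBTB16, were lower with VER in both lines, so this small group did not move together.

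Of the last pair, C1orf116, a gene named for its specific regulation by androgen (chromosome 1, 207018521 to 207032756), was at 68.8, 24.4 and 49.9 FPKM in C4-2B MDVR and at 44.0, 17.1 and 38.6 FPKM in CWR22Rv1. PART1, a long noncoding RNA (chromosome 5, 60487713 to 60547657), was at 0.973, 0.653 and 0.503 FPKM in C4-2B MDVR and at 3.26, 2.31 and 6.35 FPKM in CWR22Rv1. PART1 exons overlap those of PDE4D on the other strand, which reached 7.81 FPKM, so its reads may not all be its own. Its change with APO in C4-2B MDVR (-0.51) was -0.26 with a pseudocount of 1, under 1.2-fold.

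The starting level of the members was compared between the DMSO libraries. In C4-2B MDVR 26 of 38 members (68.4%) were higher than in CWR22Rv1, against 39.2% of all genes, and 10 (26.3%) were lower, against 43.2%. Past 2-fold these were 20 (52.6%, against 19.4%) and 9 (23.7%, against 27.2%). Both counts of higher members include ORM1, TRPM8 and OPRK1, whose vehicle value in CWR22Rv1 was 0 FPKM. Both counts of lower members include MAF, whose vehicle value in the other line was 0 FPKM. Such genes passed the filter through a single line, so their direction was fixed beforehand. The shares of all genes contain genes of this kind too, and shares without them are not given. Large differences ran in both directions. ABCC4 was at 38.6 FPKM in C4-2B MDVR and 1.81 in CWR22Rv1, EAF2 at 23.2 and 0.658, and ALDH1A3 at 6.38 and 0.144, whereas HPGD was at 0.689 and 70.1, ZBTB10 at 15.6 and 115.7, and CHRNA2 at 3.10 and 36.5. STEAP2, AZGP1 and CAMKK2 were close to each other, at 88.0 and 89.6, 74.7 and 63.8, and 32.3 and 26.5 FPKM, and of these CAMKK2 passed 1.2-fold as deposited (0.29) but not after scaling to a median ratio of 1 (0.18).

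**Figure D4:**
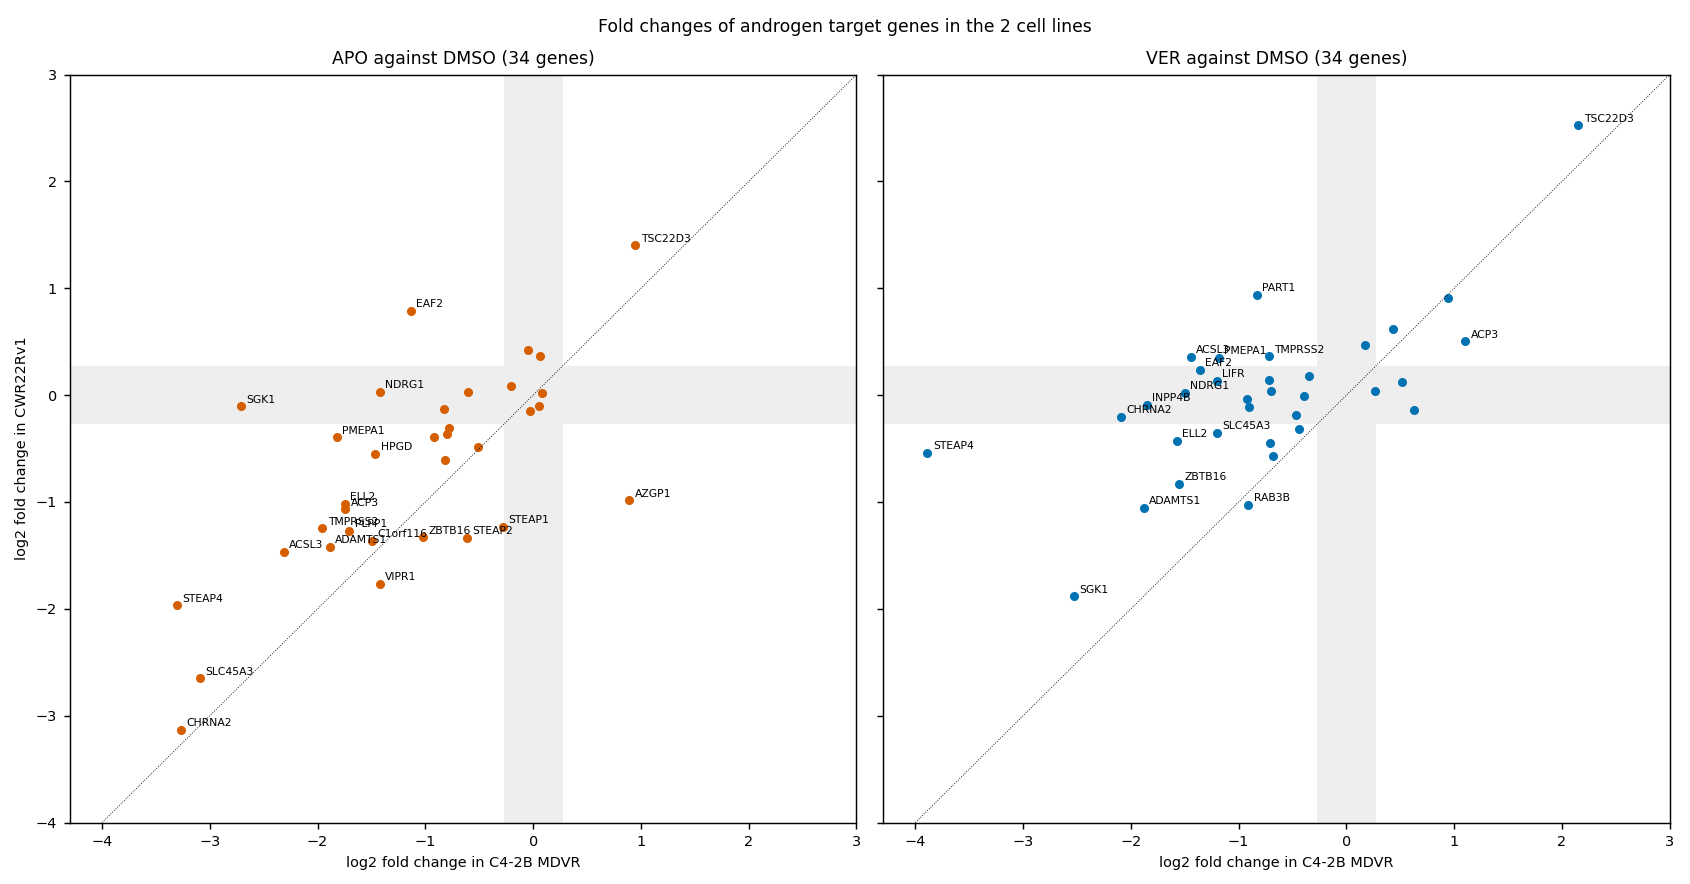
log2 fold change against DMSO in C4-2B MDVR (horizontal axis) and in CWR22Rv1 (vertical axis) for APO (left) and VER (right), 1 point for each of the 34 members above 0 in all 6 libraries and compared in both lines, with grey bands inside 1.2-fold and names for points past 2-fold in a line or opposite in direction. With APO most points lie at the lower left, and with VER most lie left of the vertical band but near or inside the horizontal one.

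The lines ranked the members in a related but not identical way. Across the 34 members above 0 in all libraries, the log2 fold changes in C4-2B MDVR and CWR22Rv1 had a Spearman correlation of 0.63 with APO and 0.54 with VER, where 15763 genes selected the same way had 0.51 and 0.46. These are correlations across genes that share libraries and are given as a description. With APO 21 of 35 members (60.0%) were lower in both lines, against 21.6% of all genes, and with VER 10 of 35 (28.6%), against 18.2%. Past 1.2-fold, AZGP1 and EAF2 went in opposite directions between the lines with APO, 2 of the 34 members above 0 in all libraries (5.88%) against 11% of such genes. With TRPM8, which has no fold change in CWR22Rv1, the share would be 8.57% of 35, against 13.2%. TMPRSS2, ACSL3, PMEPA1 and PART1 differed in direction with VER, 4 of 35 (11.4%) against 11.5% of all genes.

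The inhibitors, at the same dose and time, were also set against each other without the DMSO libraries. In CWR22Rv1 25 of 36 members (69.4%) were higher with VER than with APO, against 37.3% of all genes, and 14 of these were higher past 2-fold (38.9%, against 15.6%). In C4-2B MDVR 17 of 37 (45.9%) were higher with VER, against 28.5%, and 8 past 2-fold (21.6%, against 8.68%). Lower with VER than with APO were 6 members in CWR22Rv1 (16.7%, against 34.5%) and 10 in C4-2B MDVR (27.0%, against 32.5%). These include TRPM8 in CWR22Rv1 and ORM1 in C4-2B MDVR, each listed at 0 with VER. Higher with VER than with APO in both lines were 16 of 35 (45.7%, against 14.6%), among them CHRNA2 (1.18 and 2.93), SLC45A3 (1.89 and 2.30), ACP3 (2.84 and 1.57) and TMPRSS2 (1.24 and 1.61). The 16 also include FOLH1, ALDH1A3 and TSC22D3, which as deposited were not lower past 1.2-fold with APO in either line. Among members above 0 in the libraries compared, SGK1 stood at the other end in CWR22Rv1, at -1.78, and INPP4B in C4-2B MDVR, at -1.80. The INPP4B value rests on 0.630 FPKM with APO and 0.110 FPKM with VER, the latter near the pseudocount. Lower with APO and higher with VER relative to DMSO were ACP3 and STEAP2 in C4-2B MDVR, 2 of 35 (5.71%) against 2.49%, and TMPRSS2, ACP3, AZGP1, ACSL3, PMEPA1 and PART1 in CWR22Rv1, 6 of 35 (17.1%) against 5.85%.

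**Figure D5:**
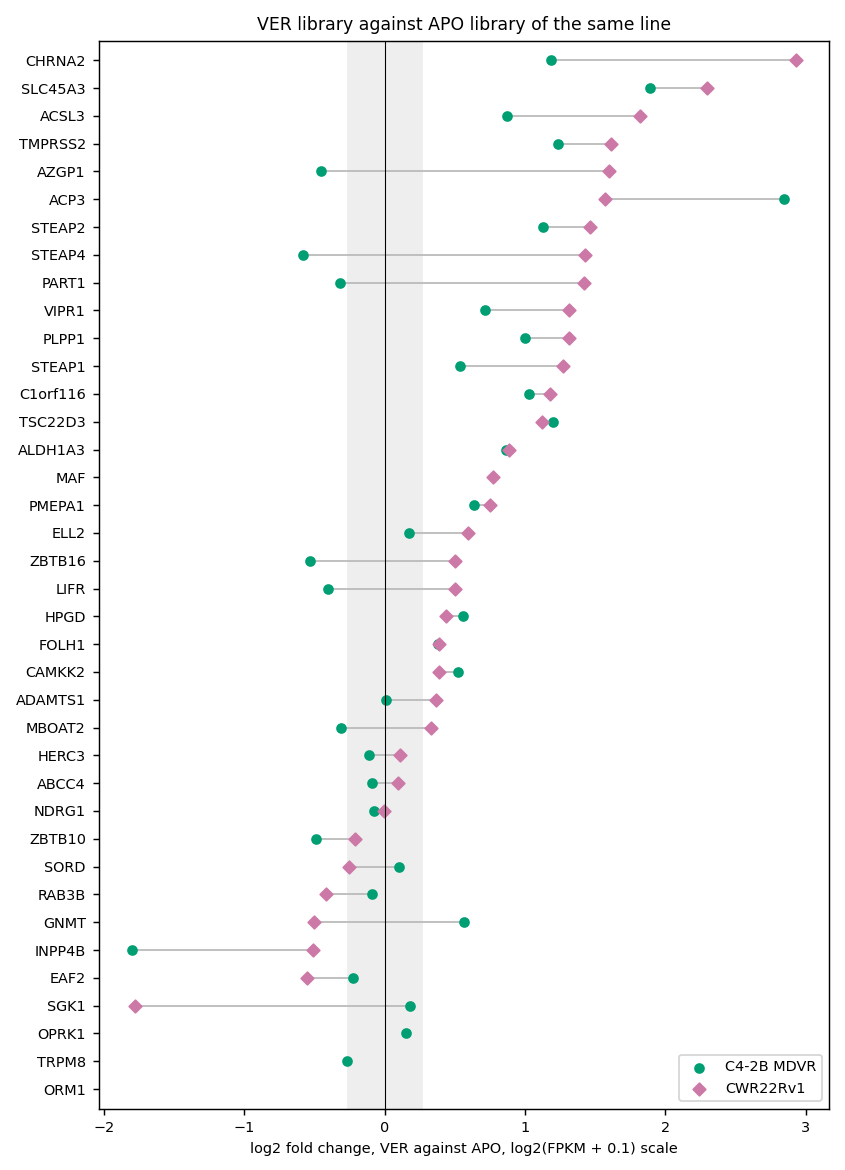
log2 fold change of VER against APO in C4-2B MDVR (green circles) and CWR22Rv1 (pink diamonds) for the members, ordered by CWR22Rv1, with a grey band inside 1.2-fold and no point where a gene was under the filter or listed at 0. Most diamonds lie to the right of the band, up to 2.93 for CHRNA2, and the diamond farthest to the left is SGK1, at -1.78.

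Another 44 androgen-induced genes outside the set, listed from common knowledge of the pathway, were counted in the same way. The list was drawn up with earlier results of these data known, so it is not an independent check. In C4-2B MDVR 27 (61.4%, APO) and 24 (54.5%, VER) of them were lower, against 35.4% and 34.9% of all genes. In the same line 8 (18.2%) and 6 (13.6%) were higher, against 37.7% and 35.6%. In CWR22Rv1 25 (56.8%) and 14 (31.8%) were lower, against 39.2% and 32.3%, and 12 (27.3%) and 7 (15.9%) were higher, against 35.6% and 32.1%. The share lower with VER in CWR22Rv1 was again close to the background. By their mean over the 4 contrasts the lowest of these genes were KLK2, KLK3 and FKBP5 (-2.55, -2.21 and -1.69), the kallikreins being secreted proteases (KLK3 is prostate-specific antigen) and FKBP5 a receptor co-chaperone. All 3 are also displayed by the study from these samples and are not independent evidence of direction. The highest were HSD17B14, a steroid dehydrogenase (1.34), SAT1, a polyamine acetyltransferase (1.16), and SLC38A2, an amino acid transporter (0.74).

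HOXB13, a transcription factor of luminal prostate cells, was at 98.2, 24.4 and 65.0 FPKM (DMSO, APO, VER) in C4-2B MDVR and at 80.6, 51.8 and 59.0 FPKM in CWR22Rv1. The other luminal markers were not lower with APO. With APO in C4-2B MDVR KRT8 was at 335 FPKM against 219 with DMSO, KRT18 at 305 against 229.5, and CDH1 at 378 against 148. With APO in CWR22Rv1 KRT8 was at 244 FPKM against 184, KRT18 at 333 against 174, and CDH1 at 138 against 122. VER moved these 3 markers past 1.2-fold in 2 places, CDH1 in C4-2B MDVR (0.71) and KRT8 in CWR22Rv1 (-0.33). The part of these levels in the members' changes was not tested. The glucocorticoid receptor gene NR3C1 was at 0, 0.126 and 0.101 FPKM in C4-2B MDVR and at 3.53, 10.3 and 5.57 FPKM in CWR22Rv1. Of 6 glucocorticoid-responsive genes outside the set, 2, 3, 2 and 4 were lower and 2, 0, 3 and 1 higher in the order C4-2B MDVR APO, C4-2B MDVR VER, CWR22Rv1 APO and CWR22Rv1 VER. FKBP5 is counted among these and also among the androgen-induced genes outside the set. Of 6 genes known as repressed by androgen outside the set, 2, 1, 2 and 2 were lower and 2, 3, 2 and 3 higher in the same order. Of all genes, 35.4%, 34.9%, 39.2% and 32.3% were lower and 37.7%, 35.6%, 35.6% and 32.1% higher in that order. With 6 genes in each list, no direction is read from these counts.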

How the data were processed

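Total RNA of 6 cell line cultures was sequenced as paired-end libraries, 1 per condition, and conditions were taken from the sample titles. Per the submitters' processing notes, the authors used HISAT, Cufflinks, Cuffnorm and GRCh38, and they deposited FPKM for each gene in a table per library. Tool versions and annotation release are not given in the sources used here. The study names a different library kit from the labels. Symbols and coordinates came from GENCODE 29 (GRCh38), which holds 57047 of the 60658 identifiers, and promoter windows from RefSeq (GRCh38.p14).

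FPKM are not counts, so no count test was run, and with 1 library a group there is no test. Log2(FPKM + 0.1) was subtracted between libraries, for genes over 0.1 FPKM in at least 1 library of the line (of the DMSO pair for the comparison of lines), and called past 1.2-fold. Alternatives were pseudocounts of 0.01 and 1, other filters, 3 rescalings and folds of 1.5 and 2. The calculation was run on simulated data, a copied DMSO library without noise in which genes above 1 FPKM were changed at least 2-fold. That checks the arithmetic, not calls near 1.2-fold, near 0.1 FPKM or under noise between libraries. Relative depth is the most common ratio of low FPKM (0.001 to 0.05) between libraries; counting error cannot be given.

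All 38 members are reported, by role; those lower in all contrasts, higher in at least 2, or opposite between lines or inhibitors are given in every library. For the outside list, KLK3, FKBP5 and the 3 lowest and 3 highest means were named. The values of 1 further gene are not reported here. Members and lists were chosen with earlier results of these data known. Tools were matplotlib 3.10.9, numpy 2.4.6, pandas 2.3.3 and scipy 1.17.1 under Python 3.11.15.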

Additional observations from a re-analysis of the deposited data

Results flagged for a closer look

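Of the members above 0 in all 6 libraries, 2 differed in direction between the lines with APO and 4 with VER, past 1.2-fold in both lines. With 1 library per condition this difference was not tested. With APO, AZGP1 had a log2 fold change of 0.89 in C4-2B MDVR and -0.98 in CWR22Rv1, and EAF2 of -1.14 and 0.79. TRPM8 was lower with APO in C4-2B MDVR (-0.88), while in CWR22Rv1 it was listed at 0 with DMSO and was at 1.26 FPKM with APO, so that it has no fold change there.

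With VER, TMPRSS2 was at -0.72 in C4-2B MDVR and 0.36 in CWR22Rv1. ACSL3 was at -1.44 and 0.36, PMEPA1 at -1.19 and 0.35, and PART1 at -0.83 and 0.94.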

How the results depend on the processing

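No paired analysis was possible because each condition has 1 library. No called value of a member changed sign under the 3 rescalings, the only alternatives that could change a sign. The counts of members lower with either inhibitor in C4-2B MDVR, and with APO in CWR22Rv1, stayed within 1.5 times of the main count. That holds for the pseudocounts, filters and rescalings. As TPM, and scaled to genes outside the mitochondrial chromosome, 6 members in place of 10 were lower with VER than with APO in C4-2B MDVR. These rescalings moved the median of genes above 1 FPKM to -0.12 and -0.14 with APO in C4-2B MDVR and the second to -0.16 with APO in CWR22Rv1. A larger fold gave fewer calls by construction. At 1.5-fold, 5 members were lower with VER in CWR22Rv1, 2 with VER against APO in each line and 3 in all 4 contrasts. Of the outside list 15 and 6 genes were lower with VER in C4-2B MDVR and CWR22Rv1. Shares of all genes at 1.5-fold were not computed, so these counts have no background. At 2-fold, 17, 15, 15 and 3 members were lower in the 4 contrasts (order: APO and VER in C4-2B MDVR, then in CWR22Rv1). So were 16, 10, 7 and 1 genes of the outside list, and 13.3%, 13.3%, 16.8% and 8.92% of all genes. With VER against APO 2 members were lower in each line, against 10.5% of all genes in each. These include ORM1 in C4-2B MDVR and TRPM8 in CWR22Rv1, listed at 0 with VER, also at 1.5-fold. In all 4 contrasts 1 member was lower past 2-fold, and that share of all genes was not computed. Leaving out genes listed at 0, an alternative chosen after seeing the data, moved no count above by over 1.5 times: 27 in place of 28 members were lower with VER in C4-2B MDVR, and 23 in place of 26 were higher in C4-2B MDVR than in CWR22Rv1 under DMSO. For values of single members, 2585 of the alternative values kept their call or stayed uncalled, 180 lost a call and 20 gained one. Of the losses, 55 and 95 came from the folds of 1.5 and 2. Filters do not alter a value, so the 257, 244 and 237 values under the other filters were the same by construction. So were the 248 values with genes listed at 0 left out. Without replicates the spread between cultures is unknown, and values under 1 FPKM are the least precise.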
